A study of Mus musculus with 21 samples.

Results

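Direct pathway striatal neurons carry the D1 dopamine receptor, and 6 of their characteristic genes were followed here: Drd1, Chrm4, Tac1, Pdyn, Isl1 and Ebf1. They were picked by gene symbol, and all 6 were found among the 21872 gene symbols of each of the 2 count tables. The genes were chosen by their class after the 7-week difference between groups in these same libraries was known. The 7-week values below are therefore a description with no p-value for a member, and counts of members past a threshold at that age support nothing. At E18.5, adjusted p-values are printed for the fold change of Drd1 and for some correlations. Genes called at 7 weeks are given as counts. RNA was sequenced from mouse brain, and the labels give no strain, allele or genotype for any group. Control mice received water. The other group received trientine (TETA), a drug that binds copper, and its condition is labelled copper-deficient. There were 6 control and 6 TETA libraries at embryonic day 18.5 (E18.5), and 5 control and 4 TETA libraries from animals of 7 weeks. The series asks about copper in the developing brain and in autism spectrum disorder. The protocol names prefrontal cortex of males, for the older age alone, while every label gives the tissue as brain; region and sex at E18.5 were not stated. How long, how and to whom (dam or offspring) the drug was given was also not stated.

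The striatum is built mainly of medium spiny neurons (MSNs), inhibitory projection cells of a pair of classes. Direct pathway MSNs project to the output nuclei of the basal ganglia and favour movement, and they respond to dopamine through D1 receptors that raise cyclic AMP. Indirect pathway MSNs carry D2 dopamine and adenosine receptors and the opioid precursor Penk, and they oppose movement. Drd1 encodes the D1 receptor, and Chrm4 encodes the M4 muscarinic receptor, which opposes D1 signalling in the same cells. Tac1 encodes the precursor of substance P and Pdyn that of dynorphin, the peptides that direct pathway cells release. Isl1 and Ebf1 are transcription factors that act as these cells form. Outside the striatum, Drd1 marks deep cortical neurons, Tac1 and Pdyn occur in cortical neurons, Chrm4 is made widely in forebrain, Isl1 marks forebrain cholinergic cells, and Ebf1 marks pericytes and other vessel cells.

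All 6 genes matched promoters of RefSeq (build GRCm38.p6, the genome of mm10), 9 promoters in all, and the 250 bases before each start were searched on both strands. Drd1 lies at chr13:54051183-54055705 (minus strand), Chrm4 at chr2:91927249-91928688 (plus), Tac1 at chr6:7554879-7565834 (plus), Pdyn at chr2:129686565-129699844 (minus), Isl1 at chr13:116298281-116309689 (minus) and Ebf1 at chr11:44617317-45008091 (plus), by GENCODE M21 on the same build. No exon of another annotated gene overlapped theirs. The stretches below lie before a RefSeq start and, except the proximal one of Tac1, outside the GENCODE gene; they are shown because cyclic AMP signalling and an EBF factor belong to these cells. Capitals mark either the core of the cyclic AMP response element (CRE), TGACG, which is CGTCA on the other strand, or the EBF palindrome, CCCNNGGG. They are, in order, from chr13:54055706-54055805 (minus), chr6:7554811-7554878 (plus), chr6:7555005-7555034 (plus), chr2:129699939-129700038 (minus), chr13:116309690-116309789 (minus) and chr2:91922089-91922188 (plus).
Drd1: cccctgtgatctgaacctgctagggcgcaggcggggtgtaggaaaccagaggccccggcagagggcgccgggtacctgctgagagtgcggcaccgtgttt
Tac1, distal: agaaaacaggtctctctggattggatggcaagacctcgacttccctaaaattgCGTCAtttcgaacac
Tac1, proximal: ggctctacaggctCGTCAcgcctgagataa
Pdyn: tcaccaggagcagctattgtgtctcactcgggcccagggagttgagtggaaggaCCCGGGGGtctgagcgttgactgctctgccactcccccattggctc
Isl1: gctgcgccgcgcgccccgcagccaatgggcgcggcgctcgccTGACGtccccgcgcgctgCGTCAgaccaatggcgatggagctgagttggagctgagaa
Chrm4: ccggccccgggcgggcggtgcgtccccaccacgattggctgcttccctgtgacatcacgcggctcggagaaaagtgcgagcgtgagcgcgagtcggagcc
The Tac1 promoter held the CRE core at -197 to -193 and at -43 to -39 from the RefSeq start, and that of Isl1 held it at -59 to -55 and at -41 to -37. No CRE core was found in the 250 bases of the other 4 genes, and 17.8% of 32851 promoters in the same table hold one. The full element, TGACGTCA, was in none of the 9 promoters and is in 1.55% of all. The upstream promoter of Pdyn held the EBF palindrome at -139 to -132 and at -46 to -39, against 11.8% of all promoters with at least 1. The CCAAT box occurred in promoters of Tac1, Pdyn, Isl1 and Chrm4, against 33.8% of all, and the TATA box TATAAA in none, against 12.4%. These are letter matches, and no measurement here bears on binding.

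The 12 libraries of E18.5 held 14668965 to 24292715 counts each, and the 9 of 7 weeks held 17838051 to 24035857. The labels do not say that replicates came from separate animals, and E18.5 libraries that share the first part of their number may share a source, so p-values measure only the spread between these samples. In the E18.5 table, 1940 genes stood at 0 in control replicate 1-1 with every other count a multiple of 11; they were divided by 11, and none of the 6 genes is among them. Both libraries numbered 1-2 stood apart in earlier results of these data, so E18.5 counts are also given without them. Among cortical markers at 7 weeks, Slc17a7, the vesicular glutamate transporter of cortical projection neurons, had a mean of 1668 ± 72.6 CPM (SD, n = 5) in control, where CPM is a gene's count over its library's total, scaled by the TMM factor. The 14 genes shared by both MSN classes summed to between 1841 and 2127 CPM in the same control libraries. In bulk tissue, fewer cells of a type and less RNA per cell cannot be told apart.

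At E18.5, before birth, none of the 6 genes was called different between TETA and control. The call was an adjusted p under 0.05 (edgeR, quasi-likelihood, Benjamini-Hochberg over the whole table). No member reached an unadjusted p of 0.05 either, and the groups overlapped for each of them. Over all 13794 genes tested, the background was 0% past the adjusted threshold (0 genes), 4.78% (660 genes) at the unadjusted one and 0.29% (40 genes) with groups that did not overlap. DESeq2 called 10 genes and limma with quality weights 8, none of them a member. The median log2 fold change of the 6 was 0.0075, and that of all genes was -0.0027. Without both libraries numbered 1-2, a choice made after seeing the data, the count of members was also 0.

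Among the receptors, Drd1 ran from 17.2 CPM (median 20.2) to 22.02 in control and from 18.6 (median 20.2) to 21.4 in TETA at E18.5. The TETA range lay inside the control range. The log2 fold change of Drd1 was 0.016 (SE 0.059, 95% interval -0.11 to 0.14, edgeR adjusted p = 0.998). Chrm4 ran from 3.06 (median 3.40) to 3.86 CPM in control and from 2.40 (median 3.11) to 4.01 in TETA. It had 39 to 98 counts per TETA library, and its fold change had the largest SE of the 6. The log2 fold change of Chrm4 was -0.07 (SE 0.12, interval -0.33 to 0.19).

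Of the peptide precursors, Tac1 ran from 19.9 (median 21.9) to 25.5 CPM in control and from 18.4 (median 22.2) to 26.9 in TETA. Pdyn ran from 8.33 (median 9.09) to 10.6 CPM and from 8.29 (median 9.33) to 10.98. TETA replicate 2-2 was the highest TETA library for both, and also for Isl1 and Chrm4. The log2 fold changes were 0.02 for Tac1 (SE 0.08, interval -0.14 to 0.19) and 0.04 for Pdyn (SE 0.08, interval -0.12 to 0.20).

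Of the transcription factors, Isl1 ran from 24.2 (median 27.5) to 31.2 CPM in control and from 21.5 (median 26.4) to 31.5 in TETA. Ebf1 ran from 29.5 (median 38.8) to 40.4 CPM and from 31.2 (median 35.6) to 46.6, with TETA replicate 1-2 at the top. The log2 fold change of Isl1 was -0.08 (SE 0.07, interval -0.23 to 0.08) and that of Ebf1 was -0.00094 (SE 0.089, interval -0.19 to 0.18).

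Levels between genes were compared per length, as CPM per kilobase of the gene's merged GENCODE exons. In E18.5 control the order was Isl1 at 7.01 ± 0.59, Tac1 at 6.55 ± 0.68, Drd1 at 5.51 ± 0.47, Ebf1 at 3.76 ± 0.45, Pdyn at 3.2 ± 0.30 and Chrm4 at 2.39 ± 0.21 CPM per kilobase (SD, n = 6). Isl1 and Tac1, Tac1 and Drd1, and Ebf1 and Pdyn overlapped in range, so only the steps from Drd1 to Ebf1 and from Pdyn to Chrm4 stood clear of the spread. TETA gave the same order with the same clear steps. The entry for Chrm4 is 1440 bases of coding exon, so its level per kilobase is not on the same footing as the others.

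**Figure D1:**
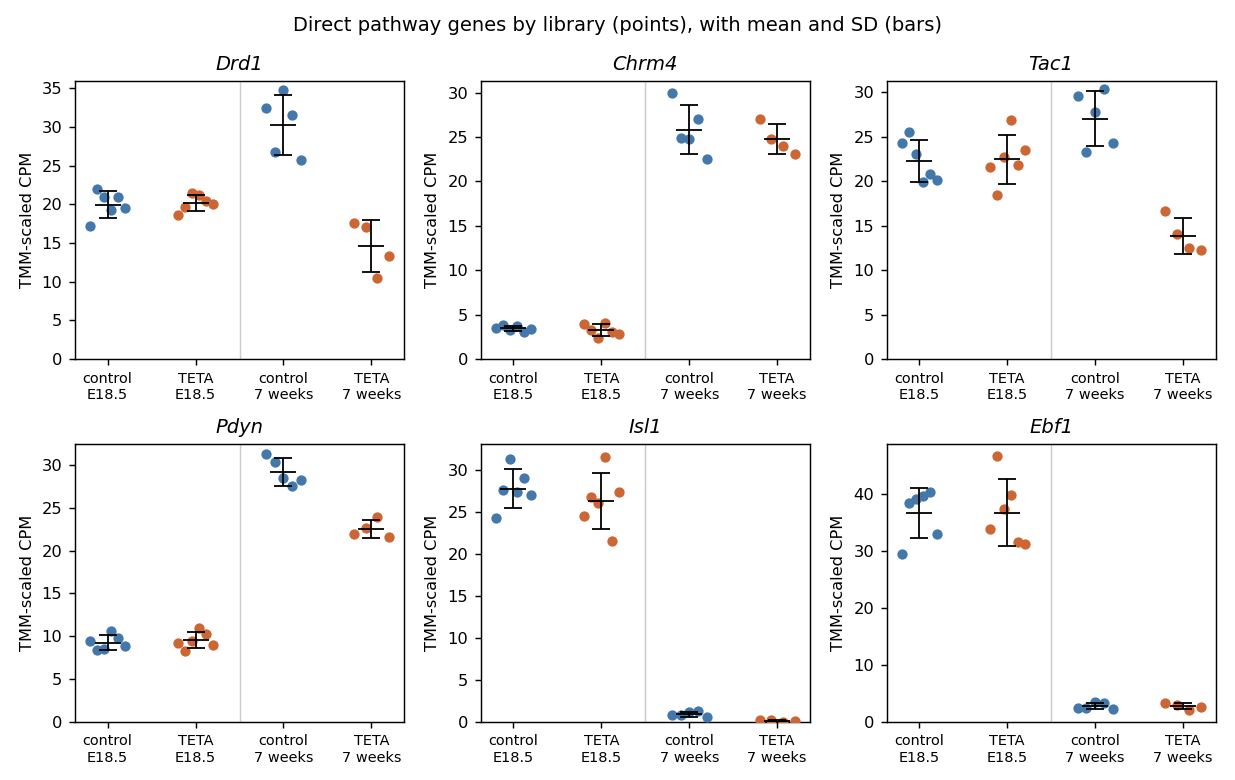
TMM-scaled CPM of each of the 6 genes (vertical axes, from 0) in every library (points), with group means and SDs (bars), for control and TETA at E18.5 and 7 weeks. At 7 weeks the points of Drd1, Tac1, Pdyn and Isl1 lie apart between groups, while those of Chrm4 and Ebf1, and all 6 genes at E18.5, overlap.

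Whether the 6 genes varied together from library to library was examined over the 12 E18.5 libraries, on log2(CPM + 1). Of 15 pairs, 10 had a Pearson correlation above 0, with a median of 0.185 and a range from -0.289 to 0.58. No pair passed adjustment over the 15. The strongest was Isl1 with Ebf1, at r = 0.58 (permutation p = 0.0481, adjusted 0.621) and Spearman rho = 0.615 (permutation p = 0.0373, adjusted 0.56). Without the 2 libraries farthest from the Isl1 median, that r was 0.488 (permutation p = 0.151). Leaving them out also narrows the range of Isl1, so the fall does not show that r rested on them. As deviations from group means, the r of Isl1 with Ebf1 was 0.602. Drd1 and Tac1 had r = 0.281 (permutation p = 0.38, adjusted 0.846; rho = 0.455, permutation p = 0.141, adjusted 0.706), and 0.558 without the 2 farthest libraries. Single libraries moved that r, to 0.653 without control replicate 1-1, 0.135 without control replicate 1-2 and 0.177 without TETA replicate 2-2. Without TETA replicate 2-2, 6 of the 15 pairs lay above 0 and the median r was -0.019.

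Each gene was also set against 3 list scores, the mean of a list's scaled log2(CPM + 1) values: shared MSN genes, indirect pathway genes and Dlx-type genes of the ganglionic eminence, the embryonic source of striatal neurons. None of these 18 relations passed adjustment, and 3 reached an unadjusted p of 0.05 by permutation. Ebf1 with the ganglionic eminence score had r = 0.613, Tac1 with the same score had r = -0.583, and Isl1 with the indirect pathway score had r = 0.573, each at an adjusted permutation p of 0.296. TETA replicate 1-2 had the highest ganglionic eminence score, the lowest Tac1 and the highest Ebf1 of the 12 libraries. Without it, Tac1 with that score had r = -0.369, Ebf1 had r = 0.441, and none of the 18 relations reached an unadjusted permutation p of 0.05. At 7 weeks the libraries fall into 2 clusters by group with fewer than 6 in each, so members were not correlated with each other or with list scores there.

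**Figure D2:**
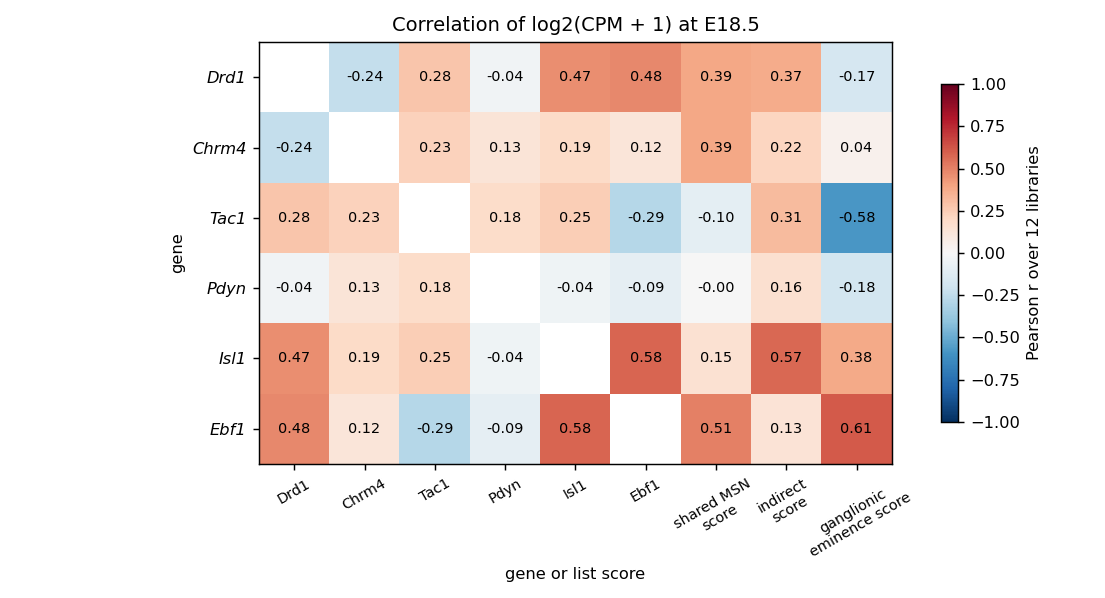
Pearson r of log2(CPM + 1) over the 12 E18.5 libraries, for each of the 6 genes (rows) with the others and with 3 list scores (columns); red is above 0 and blue below. The deepest cells among gene pairs are Isl1 with Ebf1 at 0.58, and none passed adjustment.

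At 7 weeks, 4 of the 6 genes were lower in TETA than in control (Drd1, Tac1, Pdyn and Isl1), and the other 2, Chrm4 and Ebf1, had overlapping groups. In the whole-table fit, 4.28% of the 14240 genes tested were called lower and 5.67% higher, and the 4 were among the former. The same 4 had groups apart, against 4.99% of all genes apart with TETA lower. Since the genes were selected on this contrast, their place among the called genes is no test of them and nothing is read from these shares. The median log2 fold change was -0.67 for the 6 and 0.00019 for all genes tested. All 6 passed the filter on low counts, but Isl1 passed through its control libraries only.

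Drd1, the D1 receptor, stood at 32.5, 26.7, 34.7, 31.6 and 25.7 CPM in the 5 control libraries and at 17.6, 17.0, 10.5 and 13.3 CPM in the 4 TETA libraries. Every TETA library lay below every control library, and TETA replicate 3 was the lowest. The means were 30.2 ± 3.87 and 14.6 ± 3.33 CPM, a log2 difference of -1.05 (SE 0.12), and the TETA mean was 48.3% of the control mean. Without TETA replicate 3 the log2 difference was -0.92.

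Chrm4, the M4 receptor, stood at 29.9, 24.9, 24.7, 27.0 and 22.6 CPM in control and at 27.0, 24.8, 23.99 and 23.1 CPM in TETA. The groups overlapped, and all TETA libraries lay within the control range. The log2 difference was -0.06 (SE 0.07, interval -0.21 to 0.09). Chrm4 is also made widely in forebrain, and the part of other cells in its level was not tested.

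Tac1, the substance P precursor, stood at 29.5, 23.3, 27.7, 30.3 and 24.3 CPM in control and at 16.6, 14.02, 12.4 and 12.3 CPM in TETA. All 4 TETA libraries lay below all controls. The means were 27.0 ± 3.12 and 13.8 ± 2.01 CPM, a log2 difference of -0.96 (SE 0.09), close in size to that of Drd1.

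Pdyn, the dynorphin precursor, stood at 31.3, 30.4, 28.4, 27.5 and 28.2 CPM in control and at 21.9, 22.6, 23.9 and 21.6 CPM in TETA. The groups lay apart here too, with the tightest spread of the 6 genes, an SD of 5.54% of the mean in control and 4.64% in TETA. TETA replicate 3, the lowest library for Drd1, was the highest TETA library for Pdyn. The means were 29.2 ± 1.61 and 22.5 ± 1.05 CPM, and the log2 difference was -0.37 (SE 0.06), smaller than those of Drd1 and Tac1.

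Isl1, the transcription factor, was near the limit of detection in adult tissue, with 19, 19, 22, 24 and 12 counts in control and 5, 3, 0 and 3 counts in TETA. These were 0.516 to 1.23 CPM in control and 0 to 0.215 CPM in TETA, and the groups lay apart. For TETA replicate 3, a count of 0 allows up to 0.130 CPM (3 counts). Pooled over libraries, 11 counts in TETA against 96 in control gave a ratio of 0.147 (exact 95% interval 0.0711 to 0.275, for counting error only). The fitted log2 difference was -2.74 (SE 0.45), and -2.29 without TETA replicate 3. Isl1 is also made by cholinergic neurons, and the 5 cholinergic genes listed summed to 7.39 to 10.8 CPM in control and 2.23 to 2.67 CPM in TETA; their part in the Isl1 result was not tested.

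Ebf1, the other transcription factor, stood at 2.36, 2.39, 3.48, 3.32 and 2.28 CPM in control and at 3.27, 2.95, 1.97 and 2.65 CPM in TETA. The groups overlapped, and TETA replicate 3 was again the lowest of its group. The log2 difference was -0.018 (SE 0.18, interval -0.39 to 0.35), and 0.11 without that library. Ebf1 also marks pericytes: the 6 pericyte genes examined summed to 187 to 195 CPM in control and 187 to 199 CPM in TETA, none of them called, and their part in the level of Ebf1 was not tested.

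Per kilobase, the 7-week control order was Chrm4 at 17.9 ± 1.93, Pdyn at 10.1 ± 0.56, Drd1 at 8.33 ± 1.07, Tac1 at 7.96 ± 0.92, Ebf1 at 0.283 ± 0.060 and Isl1 at 0.230 ± 0.074 CPM per kilobase (SD, n = 5). Pdyn, Drd1 and Tac1 followed each other with overlapping ranges, as did Ebf1 and Isl1. The place of Chrm4 rests on its entry of 1440 bases of coding exon, so here too its level is not on the same footing. In TETA, Pdyn at 7.80 ± 0.36 CPM per kilobase stood clear above Tac1 at 4.07 ± 0.59 and Drd1 at 4.03 ± 0.92 (SD, n = 4). Isl1 at 0.0332 ± 0.023 also stood clear below Ebf1 at 0.278 ± 0.057. The tables of the 2 ages were normalized separately and may cover different regions, so the orders at the 2 ages were not compared.

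The unequal differences among the genes were also visible as ratios within a library, which were chosen after the values were seen and carry no test. The ratio of Pdyn to Tac1 ran from 0.906 to 1.30 in control and from 1.32 to 1.92 in TETA. Chrm4 to Drd1 was 0.860 ± 0.088 in control and 1.75 ± 0.37 in TETA, with no overlap. Drd1 to Tac1 was 1.12 ± 0.085 and 1.05 ± 0.15, and overlapped. Thus the ratio of Drd1 to Tac1 did not separate the groups, while Pdyn relative to Tac1 and Chrm4 relative to Drd1 were higher in every TETA library than in any control. Other forebrain cells also make Chrm4, and their part in its ratio to Drd1 was not tested.

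A direct pathway gene was also set against its indirect pathway counterpart. The ratio of Drd1 to Drd2, the D2 receptor, was 1.31, 1.78, 1.66, 1.57 and 1.54 in control and 3.35, 3.22, 6.12 and 4 in TETA. Tac1 to Penk, the enkephalin precursor, was 0.222 ± 0.020 in control and 0.340 ± 0.045 in TETA, also with groups apart. Drd1 to Ppp1r1b, the dopamine-regulated phosphatase inhibitor of both MSN classes, was 0.152 ± 0.012 and 0.154 ± 0.017, and overlapped. At E18.5 the groups overlapped in all of these ratios.

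**Figure D3:**
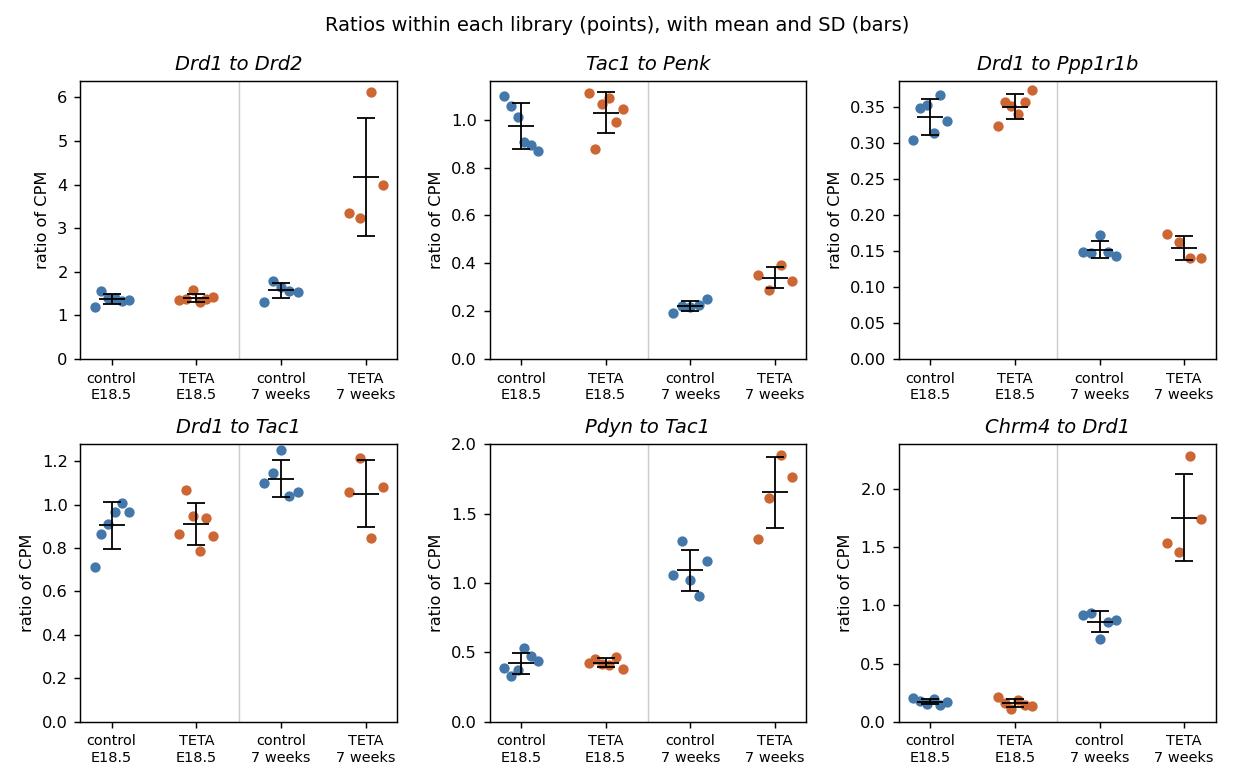
Ratios of TMM-scaled CPM within each library (points; vertical axes from 0), with group means and SDs (bars), for control and TETA at both ages. At 7 weeks, Drd1 to Drd2, Tac1 to Penk, Pdyn to Tac1 and Chrm4 to Drd1 are higher in every TETA library than in any control, while Drd1 to Ppp1r1b and Drd1 to Tac1 overlap.

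Other genes of the pathway were taken from lists, and their 7-week values came from the same fit, with the median of all genes at 0.00019. Of 6 other genes enriched in direct pathway cells, 2 were called lower and none higher (median log2 fold change -0.096). The 2 were Slc35d3, a regulator of D1 receptor trafficking, at -2.14 (SE 0.20) and the zinc finger factor Zfp521 at -0.37 (SE 0.09). Sfxn1 at -0.04 and Eya1 at -0.02 were not called.

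Among 6 indirect pathway genes, 5 fell and the median was -1.81. Drd2 fell from 19.5 ± 3.83 to 3.89 ± 1.72 CPM, a log2 difference of -2.34 (SE 0.20). Adora2a, the adenosine receptor of these cells, was at -2.34 (SE 0.15), Penk at -1.58 (SE 0.12) and Gpr6 at -2.04 (SE 0.21). The fifth, Gpr52, was at -0.82 (SE 0.09), and Sp9, at -0.36 (SE 0.12), was not called; both are named after their values were seen. Of 14 genes shared by both MSN classes, all 14 were called lower (median -0.76), among them Ppp1r1b at -1.08, Rgs9 at -1.40 and Pde10a at -0.95. Their summed level was 1171 to 1333 CPM in TETA, below the control range given above, and the indirect genes summed to 164 to 240 CPM in control and 47.6 to 76.3 CPM in TETA.

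Genes that make and receive the peptides were also covered. Of 7, 5 were called lower and 1 higher (median -0.19). Pcsk1, which cleaves prohormones, rose by 0.19 (SE 0.06), while its relative Pcsk2 fell by 0.10 (SE 0.03) and the carboxypeptidase Cpe fell by 0.19 (SE 0.04); Pam, the amidating enzyme, was at 0.04 and not called. The other 3 called lower were Tacr1 and Tacr3, receptors for Tac1-family peptides, and Oprk1, the dynorphin receptor, named after their values were seen: the log2 difference was -1.15 (SE 0.16) for Tacr1, -1.05 (SE 0.31) for Tacr3 and -0.58 (SE 0.11) for Oprk1. Of 11 paralogs of the 6 genes, 9 were tested, with a median of 0.03. Of these 9, none was called lower and 1 was called higher, the M2 receptor Chrm2, at 0.20 (SE 0.06). That call lay just inside the threshold. Drd5, the other D1-type receptor, was at 0.03 (SE 0.14), and Chrm1 and Chrm3 were at -0.0044 (SE 0.034) and -0.08 (SE 0.05).

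Markers of other cells were read beside these. Cholinergic genes were lower in TETA, with 3 of 3 tested called (Chat -2.25, Slc5a7 -1.57, Slc18a3 -1.61), and their summed levels are given beside Isl1. The 8 cortical projection neuron genes summed to 2181 to 2359 CPM in control and 2197 to 2283 CPM in TETA, with 2 called lower (Emx1 at -0.26 and Rorb at -0.18, named after their values were seen); Tbr1, Neurod6 and Slc17a7 were not called. Layer 6 genes, of the cells that carry Drd1 in cortex, had 1 of 5 called (Syt6, at -0.23) and summed to 164 to 192 and 152 to 178 CPM. The sum of the 3 choroid plexus genes tested was high in control replicate 4 alone, at 57.2 CPM. The other 4 controls ran from 2.60 to 3.85 CPM and TETA from 1.78 to 4.17 CPM. In control, Ttr was at 10.8 ± 23.0 CPM, against 1.77 ± 0.90 for Kl and 1.42 ± 0.52 for Clic6 (SD, n = 5). Of the 3, 1 was called lower (Clic6, at -1.60), with its groups apart. The parts of the MSN, cholinergic, layer 6 and choroid plexus levels in the results for the 6 genes were not tested. Among the remaining lists, 1 of 6 cortical interneuron (Npy, at -0.19), 1 of 5 ganglionic eminence (Dlx6, at -0.51), 0 of 2 dopamine neuron, 0 of 2 thalamic and 0 of 2 hypothalamic genes tested were called, each of the called ones lower. At E18.5 none of the genes on any list was called; the median log2 fold change was -0.07 for the indirect pathway, -0.029 for the shared MSN and 0.0011 for the other direct pathway genes.

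With the shared MSN score as a covariate in the 7-week fit, none of the 6 genes passed the threshold and the count over all genes went from 1418 (927 without TETA replicate 3) to 12. In that fit the log2 difference was 0.37 (SE 0.25) for Drd1, -0.08 for Tac1, -0.37 for Pdyn and -0.47 (SE 1.32) for Isl1. The score itself separated the groups, at 0.457 to 1.14 in control and -1.37 to -0.72 in TETA, so score and group cannot be told apart in this fit. The difference between the 2 ages in the effect of TETA was not tested.

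**Figure D4:**
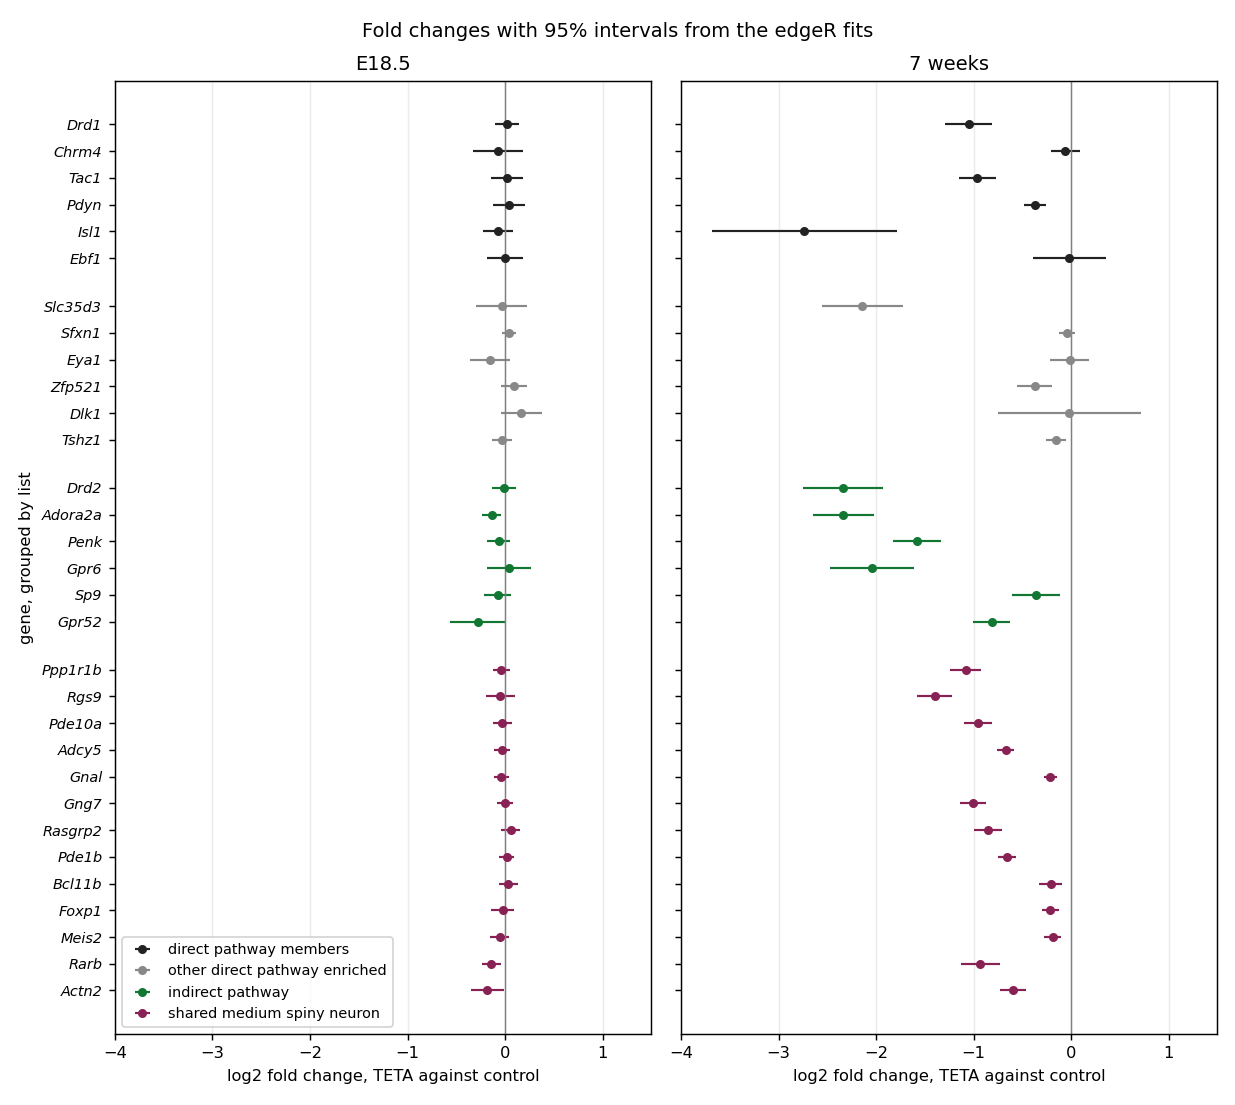
Log2 fold change of TETA against control (horizontal axis; points) with 95% intervals (bars) from the edgeR fits at E18.5 (left) and 7 weeks (right), for the 6 genes and genes of 3 related lists. At 7 weeks Drd1, Tac1, Pdyn and Isl1 lie left of 0 at -1.05, -0.96, -0.37 and -2.74, with Chrm4 and Ebf1 at 0 within their intervals, while the E18.5 points lie close to 0.

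Genes whose levels followed the mean of the 6 from library to library, after group means were removed, were ranked by Pearson r among genes of at least 5 CPM on average. Over the 9 libraries at 7 weeks, the first 5 of 11313 were Zfp59 (0.959), Chsy1 (0.945), Hnmt (0.933), Penk (0.928) and Ier2 (0.926). The 14 shared MSN genes ranked from 14 to 1911, the indirect pathway genes from 4 to 539, and the 4 other direct pathway genes above that level from 834 to 7927. Over the 12 libraries at E18.5, the first 4 of 11249 were Zfp60 (0.881), Mecr (0.861), Amy1 (0.849) and Plekhf2 (0.835). The shared MSN genes were scattered there, with Ppp1r1b at rank 78 and Rgs9 at 9203. The indirect pathway genes above that level ranked from 102 to 4502, and the other direct pathway genes from 1145 to 9102. Each point sets values of 1 library side by side, which share that library's depth and preparation, and the ranks carry no test.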

How the data were processed

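The 6 genes, the gene lists and the tests were chosen with earlier results of these data known. For each age the authors deposited a table of raw counts, with genes in rows and libraries in columns. The libraries were stranded mRNA libraries (TruSeq), per the labels' protocols. Reads were processed with STAR 2.7.1a and featureCounts 2.0.1 on mm10, per the submitters' processing notes; the annotation and strand setting are not given in the sources used here, so the handling of reads shared by similar genes is unknown. At E18.5 the 1940 rows at 0 in control replicate 1-1 were divided by 11, since all 1940 held only multiples of 11 and no row above 0 there did. No pair of replicates agreed within counting noise (lowest chi-square per gene 2.27 at E18.5 and 2.35 at 7 weeks).

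Each age was fitted alone with edgeR 4.0.16 (R 4.3.3): filterByExpr with a minimum count of 10, TMM factors (0.983 to 1.01), the quasi-likelihood test and Benjamini-Hochberg adjustment over all genes tested at 0.05. The SE is the log2 fold change divided by the root of the F statistic. Correlations used log2(CPM + 1) and two-sided permutation tests with 100000 resamples. Alternatives were DESeq2 1.42.0, limma 3.58.1 with quality weights, other filters (none, or a mean of 50 counts), no TMM factors, the counts as deposited, libraries summed by first number, a shared MSN score as covariate, a replicate block and leaving out each library. Named genes were the 6 members, at most the first 4 tested genes of each list and the 5 genes most like the members at each age. Some genes that this rule takes in are not reported here. Of 103 listed genes, 102 had 1 GENCODE M21 entry. Python 3.11.15 with numpy 2.4.6, pandas 2.3.3, scipy 1.17.1 and matplotlib 3.10.9 was used.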

Additional observations from a re-analysis of the deposited data

How the results depend on the processing

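At E18.5 the count of the 6 genes past the threshold was 0 under every alternative run. The count over all genes was 0, and it was 10 with DESeq2, 8 with library quality weights, 2 with libraries of the same first number summed, and 7 without both libraries numbered 1-2 (added after seeing the data). Leaving out single libraries gave 0 to 7 genes, with 7 without TETA replicate 1-2 and 3 without control replicate 3-2. The cause was not tested. Log2 fold changes near 0 changed sign when single libraries were left out: -0.019 to 0.045 for Drd1, -0.038 to 0.075 for Tac1, -0.011 to 0.085 for Pdyn and -0.082 to 0.044 for Ebf1. That of Chrm4 ran from -0.15 (without TETA replicate 2-2) to -0.0044 (without TETA replicate 2-1), and that of Isl1 from -0.14 (without TETA replicate 2-2) to -0.027 (without TETA replicate 3-1). The value of Ebf1 was also 0.0012 with DESeq2, 0.0090 with summed libraries, 0.00063 with no filter and 0.086 with the shared MSN score as covariate.

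At 7 weeks the members were selected on the contrast itself, so how their calls hold is no sign of stability. Their count went from 4 to 0 in the covariate fit, and Isl1 was not tested with a mean of 50 counts as the filter. Outside the covariate fit, the log2 difference ran from -1.16 to -0.92 for Drd1, -1.06 to -0.91 for Tac1, -0.41 to -0.35 for Pdyn and -3.12 to -2.29 for Isl1. With the covariate it was 0.37 for Drd1, 0.56 for Chrm4 and 1.14 for Ebf1, and 12 genes passed instead of 1418; the cause was not tested. Leaving out single libraries gave 927 (without TETA replicate 3) to 1392 genes, with log2 differences of -0.13 to 0.11 for Ebf1 and -0.11 to -0.00035 for Chrm4. Without TMM factors, 67.6% of the genes called at 7 weeks were higher, against 57.0% with them.

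With a replicate block, 0 of the 6 genes passed at E18.5 and 4 at 7 weeks, and 0 and 1072 over all genes. Same-numbered libraries correlated at -0.32 to 0.33 at E18.5 and at -0.12 to -0.036 at 7 weeks, so the numbers were not taken to pair them, and the block changed no call of a member. No correlation at E18.5 passed adjustment under any alternative run. Low counts limit Isl1 at 7 weeks and Chrm4 at E18.5.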
